A study of Mus musculus with 12 samples.

Results

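The genes that make, sense, export, store and move cholesterol were followed in microglia of mice with and without HDAC3, before and after stroke. The 32 members were taken by gene symbol from the 55401 genes in the count files and were ordered by role: 15 genes of cholesterol synthesis, 3 of sterol sensing (Insig1, Srebf1, Srebf2), 3 targets of the liver X receptors (LXR) that lower cell cholesterol (Abca1, Abcg1, Mylip), 2 LXR receptors (Nr1h2, Nr1h3), 6 of storage and transport (Ch25h, Soat1, Npc1, Npc2, Lipa, Stard4) and 3 of fatty acid synthesis (Scd2, Fasn, Acaca). RNA of sorted CD45int CD11b+ microglia was sequenced in 12 libraries, 3 for each of the groups WT-Sham, WT-tFCI, miKO-Sham and miKO-tFCI, and a library combined cells of 3 to 4 hemispheres. WT mice were CX3CR1 wt/wt and HDAC3 loxp/loxp, without CreER, and miKO mice were CX3CR1 CreER/wt and HDAC3 loxp/loxp, so that all groups carried the floxed HDAC3 alleles and the miKO groups alone carried CreER, which takes the place of one CX3CR1 allele. Male mice received tamoxifen on 5 days at an age of 6 to 8 weeks and underwent surgery at least 1 month later. Transient focal cerebral ischemia (tFCI) was a 60 min occlusion of the left middle cerebral artery, Sham was the same procedure without occlusion, and the sequenced cells of the tFCI groups were taken on day 3. CreER is driven by the CX3CR1 promoter, which other macrophages also use, and effects of losing HDAC3 and of losing a CX3CR1 allele cannot be told apart in these groups.

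Cells keep their cholesterol within limits through paired controls. When sterols are low in the endoplasmic reticulum, SCAP escorts the SREBP proteins (encoded by Srebf1 and Srebf2) to the Golgi, where they are cut and freed to switch on the synthesis genes, and INSIG proteins hold them back when sterols are high. Oxysterols, made when cholesterol is plentiful, bind LXR, which replaces a corepressor complex that contains HDAC3 by coactivators at export genes such as Abca1 and Abcg1, and at Mylip, whose protein directs the LDL receptor to degradation. Below, Abca1, Abcg1 and Mylip are together called export genes for short, although Mylip does not encode an exporter. Phagocytes that engulf myelin take in much cholesterol, which they cannot break down to smaller units and must esterify, store or export.

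Per library, 7697864 to 9452222 counts fell on genes, and levels are given in CPM, counts relative to the TMM-scaled total of counts on genes. A quasi-likelihood fit of edgeR to all 12 libraries, which took group and batch into account, tested 16451 genes, and a gene was called when its Benjamini-Hochberg adjusted p was under 0.05 and its absolute log2 fold change (log2FC) was above 0.58. Hdac3, the check of the labels, lay between 20.9 and 36.0 CPM in the miKO libraries and between 35 and 54.0 CPM in the WT libraries, and every miKO library was below the WT libraries of the same surgery. All 10 microglia markers were found, with a summed level of 25698 to 30558 CPM in WT-Sham, 19581 to 20380 CPM for WT-tFCI, 21447 to 26199 CPM for miKO-Sham and 10172 to 16640 CPM in miKO-tFCI. Replicate 1 of each group was sequenced in batch 1 and replicates 2 and 3 in batch 2, so a library of batch 1 that stands apart cannot be told apart from its batch. Replicates 1 and 2 of miKO-Sham, from different batches, were unusually alike: chi-square per degree of freedom between their counts was 2.88, against 21.4 to 86.4 for the other pairs from different batches within a group. They still differed by more than sampling noise and were kept apart, and without replicate 1 or 2 the miKO-Sham vs. WT-Sham comparison called 13 or 12 members. Replicates 2 and 3 of miKO-Sham, both of batch 2, were far apart, at 46.1. The batch 2 pairs of the other groups were at 3.87 to 14.4. Why replicate 3 stood apart in miKO-Sham was not tested, and the batch term and within-batch values rest on the batches as given. The labels and methods describe the replicates as biological but do not say which animals shared a library. In bulk RNA, fewer cells of a type and less RNA per cell cannot be told apart.

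Per kilobase of exon, Npc2, a lysosomal cholesterol carrier, had the highest mean level over the 12 libraries at 124 CPM per kb, followed by Mylip at 79.5, Abca1, the exporter that loads lipid-poor apolipoproteins, at 55.2 and Lipa, the lysosomal acid lipase, at 29.2 CPM per kb. Among the synthesis genes, the level per kilobase ran from 27.1 CPM per kb for Fdft1 and 11.1 CPM per kb for Mvd down to 0.774 CPM per kb for Idi1 and 0.11 CPM per kb for Fdps. Fdps, which joins isoprenoid units to farnesyl diphosphate, held 1 to 9 counts per library and was the 1 member that the filter on low counts removed, so 31 members were tested. Genes with near-identical copies can lose reads in counting, and for Fdps this was not tested. Of the 31, 22 were called in at least 1 comparison and 9 in none (Mvk, Lss, Nsdhl, Insig1, Srebf1, Nr1h2, Npc1, Stard4 and Acaca).

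Read assignment limits some members. Of 33 genes lying wholly inside an exon of an opposite-strand gene with a mean of at least 500 counts, 33 held reads (median read density 1.26 times that of the enclosing gene), so reads of overlapping opposite-strand genes cannot be told apart. This concerns Fdft1 most: 774 of its 4227 exon bases overlap Ctsb, an abundant lysosomal protease gene with group means of 3182 CPM in WT-Sham, 10779 CPM in WT-tFCI, 12494 CPM in miKO-Sham and 21173 CPM in miKO-tFCI. The values of Fdft1 below are therefore uncertain. Ch25h overlaps Gm26902, whose highest group mean was 13.7 CPM, in WT-tFCI, and Cyp51 overlaps Akap9, whose group means ran from 57.6 CPM in miKO-tFCI to 102 CPM in WT-Sham.

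RefSeq promoters (GRCm38.p6, from 250 bases before to 50 after each annotated start) were held for 25 of the 32 members, in 30 promoters, and are shown because the members below moved by role. They were searched on both strands for a sterol regulatory element (TCACNCCAC), the CCAAT box to which NF-Y binds and the LXR direct repeat, a pair of half-sites with a spacer between them. The sterol regulatory element stood in 1.24% of all 32851 promoters and, among the members, in that of Hmgcs1, which makes HMG-CoA from acetoacetyl-CoA. CCAAT stood in 37.4% of all promoters and in 20 of the 30 member promoters, among them those of 11 of the 12 synthesis genes held. The LXR repeat stood in 0.718% of all promoters and in those of 3 members, Abca1, Srebf1 and Fasn. The sequences run 5′ to 3′ on the strand of the gene and end at the base before the start. Capitals mark the sterol regulatory element and the NF-Y box, on either strand, in Hmgcs1 (150 bases, plus strand, chr13:119690201-119690350), the NF-Y box in Mvd (100 bases, minus strand, chr8:122443423-122443522), and the LXR repeat, read on the other strand, in Abca1 (100 bases, minus strand, chr4:53159896-53159995) and in 1 of the Srebf1 promoters (200 bases, minus strand, chr11:60210472-60210671).
Hmgcs1: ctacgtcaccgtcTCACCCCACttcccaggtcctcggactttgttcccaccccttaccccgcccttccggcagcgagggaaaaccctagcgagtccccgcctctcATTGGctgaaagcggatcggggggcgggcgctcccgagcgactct
Mvd: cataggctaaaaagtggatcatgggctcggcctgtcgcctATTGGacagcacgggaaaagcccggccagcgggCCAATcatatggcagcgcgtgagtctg
Abca1: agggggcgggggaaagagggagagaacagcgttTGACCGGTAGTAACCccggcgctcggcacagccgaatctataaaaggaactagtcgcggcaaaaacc
Srebf1: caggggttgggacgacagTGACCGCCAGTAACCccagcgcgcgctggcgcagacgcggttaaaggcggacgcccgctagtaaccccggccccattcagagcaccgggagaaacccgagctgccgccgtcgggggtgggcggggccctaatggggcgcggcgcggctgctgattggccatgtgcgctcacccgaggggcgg
A match is a description of letters and says nothing on binding, and a strict motif misses weaker forms of the same site.

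miKO-Sham was compared with WT-Sham to ask how cholesterol genes differ when microglia lack HDAC3 and the brain is uninjured. Genes of synthesis, export and the lysosome were among those that rose: 14 of the 31 members tested were called higher (45.2%) and 0 lower, against 8.58% of all genes called higher and 6.80% called lower in this comparison (at an unadjusted p under 0.05 edgeR put 0 members lower, and DESeq2 called 0 lower). By role, 6 of 14 synthesis genes, 1 of 3 sensing genes, 3 of 3 export genes, 0 of 2 LXR receptors, 3 of 6 storage and transport genes and 1 of 3 fatty acid genes rose. The median log2FC was 0.59 over the synthesis genes and 1.27 over the export genes, and 0.04 over all genes tested.

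Mvd, the decarboxylase that makes isopentenyl diphosphate, stood at 11.2, 11.3 and 7.28 CPM in WT-Sham replicates 1 to 3, 37.2, 35.1 and 28.1 CPM in miKO-Sham, 13.5, 13.7 and 16.1 CPM in the WT-tFCI libraries, and 29.0, 25.6 and 20.4 CPM in those of miKO-tFCI. All miKO-Sham libraries were above all WT-Sham libraries, by 3.37-fold (log2 fold change 1.75, SE 0.20, adjusted p = 2.15e-05), the largest change of any member tested in this comparison. Dhcr7, which catalyses the last reduction to cholesterol, had 12.98, 16.8 and 14.5 CPM in WT-Sham replicates 1 to 3, 31.1, 31.2 and 34.2 CPM in miKO-Sham, 19.6, 21.4 and 19.1 CPM in the WT-tFCI libraries, and 19.5, 26.0 and 32.01 CPM in those of miKO-tFCI, and the Sham groups did not overlap (log2 fold change 1.13, SE 0.17, adjusted p = 2.38e-04). Sqle, squalene epoxidase and a slow step of the pathway, measured 3.85, 4.15 and 2.67 CPM in WT-Sham replicates 1 to 3, 6.25, 12.9 and 7.43 CPM in miKO-Sham, 14.5, 8.08 and 5.73 CPM in the WT-tFCI libraries, and 22.8, 21.6 and 21.8 CPM in those of miKO-tFCI. Its miKO-Sham libraries were above the WT-Sham libraries, replicate 2 being the highest (log2 fold change 1.34, SE 0.36, adjusted p = 0.0163), and the call was lost without WT-Sham replicate 3 (adjusted p = 0.0711) and without miKO-Sham replicate 2 (adjusted p = 0.0943). Fdft1, squalene synthase, counted 77.8, 51.6 and 53.0 CPM in WT-Sham replicates 1 to 3, 172, 179 and 109.9 CPM in miKO-Sham, 105, 117 and 117 CPM in the WT-tFCI libraries, and 108, 145 and 139 CPM in those of miKO-tFCI. It was called higher in miKO-Sham (log2 fold change 1.34, SE 0.20, adjusted p = 2.65e-04), and so was its overlapping partner Ctsb (log2FC 2.00, adjusted p = 7.59e-06).

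The remaining synthesis calls were smaller. Sc5d, a desaturase of the late pathway, rose from 13.3 ± 3.54 CPM to 27.7 ± 4.19 CPM (SD, n = 3, log2 fold change 1.08, SE 0.28, adjusted p = 0.0128 by edgeR), and the call was lost without WT-Sham replicate 1 (adjusted p = 0.0600) and without miKO-Sham replicate 1 (adjusted p = 0.0584). Msmo1, the sterol C4-methyl oxidase, had 21.3, 25.4 and 29.6 CPM in WT-Sham replicates 1 to 3, 34.3, 37.6 and 47.1 CPM in miKO-Sham, 32.4, 24.1 and 23.0 CPM in the WT-tFCI libraries, and 40.6, 41.7 and 62.7 CPM in those of miKO-tFCI. The Sham groups of Msmo1 did not overlap (log2 fold change 0.64, SE 0.20, adjusted p = 0.0410), but the call was lost without any 1 of WT-Sham replicates 1 and 2 or of the 3 miKO-Sham libraries, where the log2FC lay between 0.52 and 0.71. The 8 synthesis genes not called had log2FC from -0.23 for Nsdhl to 1.06 for Hsd17b7. Of the SREBP genes, Srebf2, whose product mainly drives cholesterol synthesis, was at 20.7, 26.2 and 23.9 CPM in WT-Sham replicates 1 to 3, 43.7, 40.9 and 32.9 CPM in miKO-Sham, 36.9, 26.0 and 30.3 CPM in the WT-tFCI libraries, and 49.0, 34.4 and 35.7 CPM in those of miKO-tFCI. Its miKO-Sham libraries were all above WT-Sham (log2 fold change 0.71, SE 0.17, adjusted p = 0.00846), and without WT-Sham replicate 1 the log2FC was 0.51 (adjusted p = 0.0555). Srebf1, whose SREBP-1a and SREBP-1c forms are counted together, had a log2FC of 0.38 (adjusted p = 0.0882), and Insig1 of -0.11 (adjusted p = 0.860).

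All 3 export genes rose in miKO-Sham. Abca1 measured 419, 314 and 284 CPM in WT-Sham replicates 1 to 3, 967, 985 and 504 CPM in miKO-Sham, 459, 499.8 and 511 CPM in the WT-tFCI libraries, and 497, 785 and 639 CPM in those of miKO-tFCI. Replicates 1 and 2 of miKO-Sham were close to each other, and replicate 3 was much lower but above each WT-Sham library (log2 fold change 1.27, SE 0.24, adjusted p = 0.00166). Abcg1, the exporter to high-density lipoprotein, had 71.3, 62.7 and 52.5 CPM in WT-Sham replicates 1 to 3, 159.9, 178 and 132 CPM in miKO-Sham, 109.8, 99.3 and 114 CPM in the WT-tFCI libraries, and 94.7, 162 and 140.0 CPM in those of miKO-tFCI, with miKO-Sham above WT-Sham (log2 fold change 1.33, SE 0.19, adjusted p = 1.73e-04). Mylip, which marks the LDL receptor for degradation, stood at 222, 218 and 221 CPM in WT-Sham replicates 1 to 3, 515, 501 and 411 CPM in miKO-Sham, 119.8, 135 and 132 CPM in the WT-tFCI libraries, and 126, 225 and 259 CPM in those of miKO-tFCI. The WT-Sham libraries of Mylip were nearly equal and all miKO-Sham libraries were far above them (log2 fold change 1.12, SE 0.19, adjusted p = 8.13e-04). The LXR receptor genes were not called: Nr1h2 differed by 0.07 (95% interval -0.21 to 0.35), and Nr1h3, at low counts, by 1.15 (95% interval 0.16 to 2.13, adjusted p = 0.102).

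Lysosomal and storage genes rose too. Lipa, which frees cholesterol from esters in lysosomes, had 82.3, 81.2 and 82.7 CPM in WT-Sham replicates 1 to 3, 296, 277 and 250.3 CPM in miKO-Sham, 143, 139 and 152 CPM in the WT-tFCI libraries, and 197, 297 and 377 CPM in those of miKO-tFCI, and miKO-Sham was 3.35-fold above WT-Sham without overlap (log2 fold change 1.74, SE 0.18, adjusted p = 9.86e-06). Soat1, the enzyme that esterifies cholesterol for storage in droplets, had 50.1, 49.1 and 56.7 CPM in WT-Sham replicates 1 to 3, 147, 147 and 99.0 CPM in miKO-Sham, 77.3, 101 and 90.2 CPM in the WT-tFCI libraries, and 115, 175 and 249 CPM in those of miKO-tFCI, with miKO-Sham above WT-Sham (log2 fold change 1.34, SE 0.22, adjusted p = 5.72e-04). Npc2, which hands cholesterol to the membrane protein NPC1, had 422, 332 and 351 CPM in WT-Sham replicates 1 to 3, 985, 964 and 759.5 CPM in miKO-Sham, 639, 642 and 595 CPM in the WT-tFCI libraries, and 675, 869.5 and 829.9 CPM in those of miKO-tFCI, and its Sham groups did not overlap either (log2 fold change 1.29, SE 0.16, adjusted p = 3.43e-05). Npc1 itself had a log2FC of -0.27 (95% interval -0.58 to 0.03). Scd2, a stearoyl-CoA desaturase, was the fatty acid gene called: it stood at 37.9, 38.4 and 39.7 CPM in WT-Sham replicates 1 to 3, 76.1, 63.3 and 55.3 CPM in miKO-Sham, 93.6, 61.2 and 73.3 CPM in the WT-tFCI libraries, and 126, 86.0 and 93.1 CPM in those of miKO-tFCI (log2 fold change 0.73, SE 0.14, adjusted p = 0.00232), and without WT-Sham replicate 1 its log2FC was 0.57, below the fold threshold. Fasn, fatty acid synthase, had a log2FC of -0.17.

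Of the 14 calls, 9 held in all 21 other settings tried (Mvd, Dhcr7, Fdft1, Abca1, Abcg1, Mylip, Lipa, Soat1 and Npc2). Marker lists of other cells moved with the Sham groups: the summed level of 10 astrocyte markers was 126 to 154 CPM in miKO-Sham and 184 to 206 CPM in WT-Sham, that of 12 oligodendrocyte markers was 152 to 192 CPM and 195 to 222 CPM, and that of 8 border macrophage markers was 1389 to 1662 CPM and 572 to 707 CPM, none of these markers being at 0 in every library. The border macrophage sum was mostly Stab1 (1068 to 1576 CPM in miKO-Sham), and Folr2 was higher in all miKO-Sham libraries (34.3 to 47.9 CPM, against 5.53 to 7.62 CPM). Mrc1, Cd163, Lyve1, F13a1, Pf4 and Cbr2 were lower in miKO-Sham replicates 1 and 2 than in each WT-Sham library. In miKO-Sham replicate 3, by contrast, Mrc1, Cd163, Lyve1, F13a1 and Cbr2 were above each WT-Sham library. Mrc1 was at 81.7 CPM there, against 32.7 to 42.8 CPM in WT-Sham, and Pf4 lay within the WT-Sham range. The sum of 10 neuron markers was 12.4 to 18.6 CPM in miKO-Sham and 2.77 to 3.92 CPM in WT-Sham, and that of 9 neutrophil markers was 337 to 367 CPM and 49.9 to 816 CPM. Most of the neuron sum in miKO-Sham was Rbfox3 (9.09 to 14.8 CPM, against 0.410 to 1.80 CPM in WT-Sham). Each other neuron marker was at most 1.39 CPM in the Sham libraries. The part of other cells in the 14 calls was not tested.

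**Figure D1:**
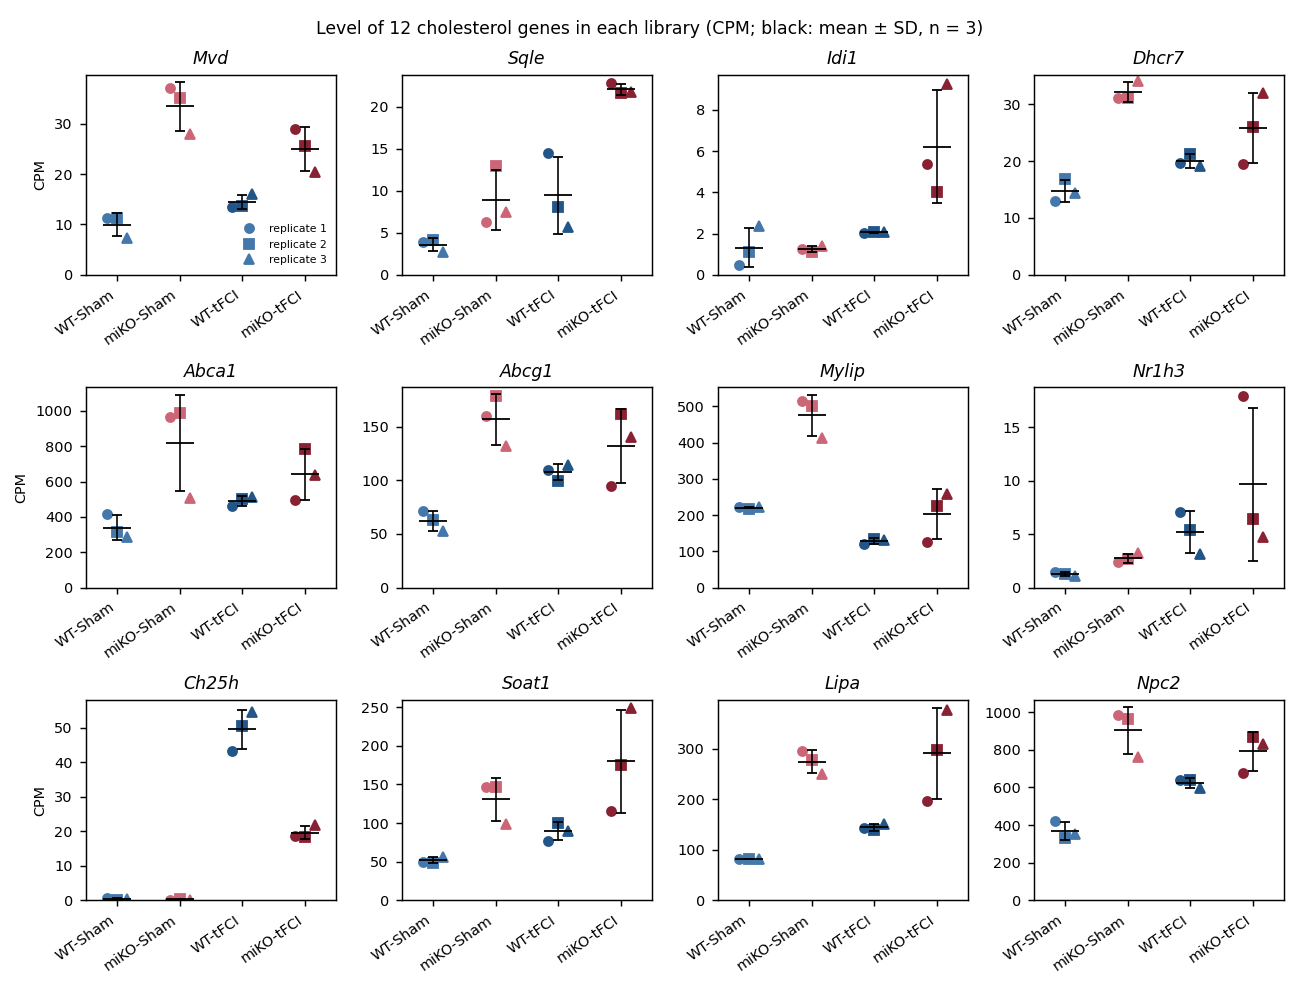
Level of 12 members in each library, in CPM from 0 on the vertical axis, by group on the horizontal axis; circles, squares and triangles are replicates 1, 2 and 3, and black lines give mean ± SD (n = 3). In every panel apart from Idi1 and Ch25h the 3 miKO-Sham libraries lie above the 3 WT-Sham libraries, and Ch25h stays under 1 CPM in all 6 Sham libraries.

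The response to stroke was read first in mice with HDAC3, by comparing WT-tFCI with WT-Sham. Here 11 of the 31 members were called higher (35.5%) and 1 lower, against 20.9% of all genes called higher and 11.7% called lower. Higher genes lay in storage and transport (4 of 6), fatty acid synthesis (2 of 3), 1 LXR receptor and 1 export gene, and the 1 lower gene was Mylip. Of the synthesis genes 3 of 14 were also called higher (21.4%), near the share of all genes. The median log2FC was 0.35 over the synthesis genes, 0.79 over storage and transport, and 0.02 over all genes.

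Ch25h, which makes the oxysterol 25-hydroxycholesterol from cholesterol, changed most. It had 5, 2 and 5 counts in WT-Sham and 362, 437 and 448 counts in WT-tFCI, or 0.601, 0.224 and 0.513 CPM against 43.3, 50.4 and 54.6 CPM. With so few counts in Sham, the fold is imprecise: log2FC was 6.75 with a 95% interval of 6.13 to 7.37 (adjusted p = 1.06e-09 by edgeR). In the miKO groups Ch25h went from 1, 4 and 2 counts in miKO-Sham to 180, 146 and 177 counts in miKO-tFCI, or 18.6, 18.3 and 21.9 CPM (log2 fold change 5.90, SE 0.33, adjusted p = 1.55e-08). Every tFCI library of either genotype was thus far above every Sham library. The overlapping gene Gm26902 was also higher in tFCI, going from group means of 0.114 CPM (WT-Sham) and 0.174 CPM (miKO-Sham) to 13.7 CPM (WT-tFCI) and 5.58 CPM (miKO-tFCI).

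Among the LXR receptors, Nr1h3, which encodes LXR alpha, had 1.44, 1.23 and 1.13 CPM in WT-Sham replicates 1 to 3, 2.36, 2.64 and 3.20 CPM in miKO-Sham, 7.06, 5.42 and 3.17 CPM in the WT-tFCI libraries, and 17.9, 6.41 and 4.70 CPM in those of miKO-tFCI. It rose in WT-tFCI, with all libraries above WT-Sham (log2 fold change 2.00, SE 0.44, adjusted p = 0.00260), while Nr1h2, which encodes LXR beta and was the more abundant receptor transcript per kilobase (24.7 against 1.88 CPM per kb), did not pass the test (log2FC -0.06, 95% interval -0.34 to 0.21). The export genes split. Abcg1 rose (log2 fold change 0.79, SE 0.19, adjusted p = 0.00428), Abca1 had a log2FC of 0.54 (adjusted p = 0.0864) with the WT libraries not overlapping, and Mylip fell by 0.78 on the log2 scale (SE 0.19, adjusted p = 0.00525), every WT-tFCI library being below every WT-Sham library.

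In storage and transport, Lipa (log2 fold change 0.82, SE 0.18, adjusted p = 0.00242), Npc2 (log2 fold change 0.77, SE 0.15, adjusted p = 0.00129) and Soat1 (log2 fold change 0.77, SE 0.22, adjusted p = 0.0121) rose without overlap between WT-Sham and WT-tFCI. The Soat1 call was lost without WT-Sham replicate 2 (adjusted p = 0.0640) and without WT-tFCI replicate 2 (adjusted p = 0.0589). Stard4, a sterol carrier of the cytosol, had a log2FC of 0.99 at few counts (SE 0.47, adjusted p = 0.105). For the fatty acid genes, Scd2 rose (log2 fold change 0.95, SE 0.14, adjusted p = 1.29e-04), and Fasn measured 14.9, 14.3 and 13.6 CPM in WT-Sham replicates 1 to 3, 14.6, 13.2 and 10.6 CPM in miKO-Sham, 36.6, 24.1 and 21.9 CPM in the WT-tFCI libraries, and 45.0, 28.9 and 26.3 CPM in those of miKO-tFCI. Every WT-tFCI library of Fasn was above WT-Sham (log2 fold change 0.91, SE 0.17, adjusted p = 8.85e-04). Acaca, which makes malonyl-CoA, had a log2FC of 0.68 (adjusted p = 0.0795).

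The share of synthesis genes called higher (Sqle, Hmgcs1 and Fdft1, 3 of 14 or 21.4%) was near the 20.9% of all genes. Sqle (log2 fold change 1.38, SE 0.35, adjusted p = 0.00644) was highest in WT-tFCI replicate 1, and without that library its log2FC was 0.92 (adjusted p = 0.0616). Hmgcs1 had 10.9, 16.6 and 18.8 CPM in WT-Sham replicates 1 to 3, 16.9, 19.98 and 24.2 CPM in miKO-Sham, 29.4, 20.4 and 23.5 CPM in the WT-tFCI libraries, and 44.0, 27.0 and 42.6 CPM in those of miKO-tFCI. Its WT-tFCI libraries were above WT-Sham (log2 fold change 0.66, SE 0.24, adjusted p = 0.0424), but the difference was 1.41 in batch 1 and 0.31 in batch 2, and the call was lost without WT-Sham replicate 1 or 2, WT-tFCI replicate 1 or 3, or miKO-tFCI replicate 3 (adjusted p from 0.0569 to 0.260). Fdft1 was called higher (log2 fold change 0.91, SE 0.20, adjusted p = 0.00268) along with its partner Ctsb (log2FC 1.76). Mvd and Dhcr7 passed the adjusted p but not the fold threshold (0.55 and 0.45 on the log2 scale). The other 9 synthesis genes had log2FC between -0.15 for Nsdhl and 0.68 for Idi1.

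In miKO mice, the same surgery was read by comparing miKO-tFCI with miKO-Sham, and 9 of 31 members were called higher (29.0%) and 1 lower, against 21.9% of all genes higher and 13.9% lower. Without miKO-tFCI replicate 1, 6 members were called. Of the synthesis genes 5 of 14 rose, and the other higher genes were Ch25h, Nr1h3, Scd2 and Fasn. No export gene rose: log2FC was -0.35 for Abca1 (adjusted p = 0.259) and -0.25 for Abcg1 (adjusted p = 0.299), and Mylip fell by 1.26 on the log2 scale (SE 0.19, adjusted p = 1.45e-04). Lipa, Npc2 and Soat1 were not called, at 0.06, -0.19 and 0.42 on the log2 scale.

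Idi1, the isomerase of isopentenyl diphosphate, rose most among the synthesis genes. It had 0.481, 1.12 and 2.36 CPM in WT-Sham replicates 1 to 3, 1.25, 1.11 and 1.41 CPM in miKO-Sham, 2.03, 2.08 and 2.07 CPM in the WT-tFCI libraries, and 5.37, 4.02 and 9.27 CPM in those of miKO-tFCI. Counts were low, 4 to 23 per library in the Sham groups and 32 to 75 in miKO-tFCI, and every miKO-tFCI library exceeded every other library (log2 fold change 2.29, SE 0.50, adjusted p = 0.00223). Sqle rose from miKO-Sham to miKO-tFCI (log2 fold change 1.30, SE 0.32, adjusted p = 0.00511), and so did Hmgcs1 (log2 fold change 0.90, SE 0.24, adjusted p = 0.00755). Cyp51, lanosterol demethylase, had 7.21, 8.07 and 11.5 CPM in WT-Sham replicates 1 to 3, 10.6, 12.6 and 15.1 CPM in miKO-Sham, 13.05, 12.3 and 10.1 CPM in the WT-tFCI libraries, and 22.1, 18.9 and 21.6 CPM in those of miKO-tFCI. The miKO-tFCI libraries of Cyp51 were above all others (log2 fold change 0.71, SE 0.22, adjusted p = 0.0163), while the overlapping Akap9 was lower in tFCI than in Sham. Acat2, which joins acetyl-CoA units, changed by just over the threshold (log2 fold change 0.60, SE 0.19, adjusted p = 0.0210), and the call was lost when any 1 library was left out other than miKO-Sham replicate 3 or miKO-tFCI replicate 2 (log2FC 0.39 without miKO-tFCI replicate 1 and up to 0.58 otherwise). Hmgcs1, Cyp51 and Nr1h3 lost their calls without miKO-Sham replicate 1 (log2FC 0.75, 0.59 and 1.19) or miKO-tFCI replicate 1 (0.67, 0.56 and 1.05), the libraries of batch 1. Fasn (log2 fold change 1.36, SE 0.18, adjusted p = 3.49e-05) and Scd2 (log2 fold change 0.64, SE 0.14, adjusted p = 0.00213) rose as well, and without miKO-tFCI replicate 1 the log2FC of Scd2 was 0.52, below the fold threshold.

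**Figure D2:**
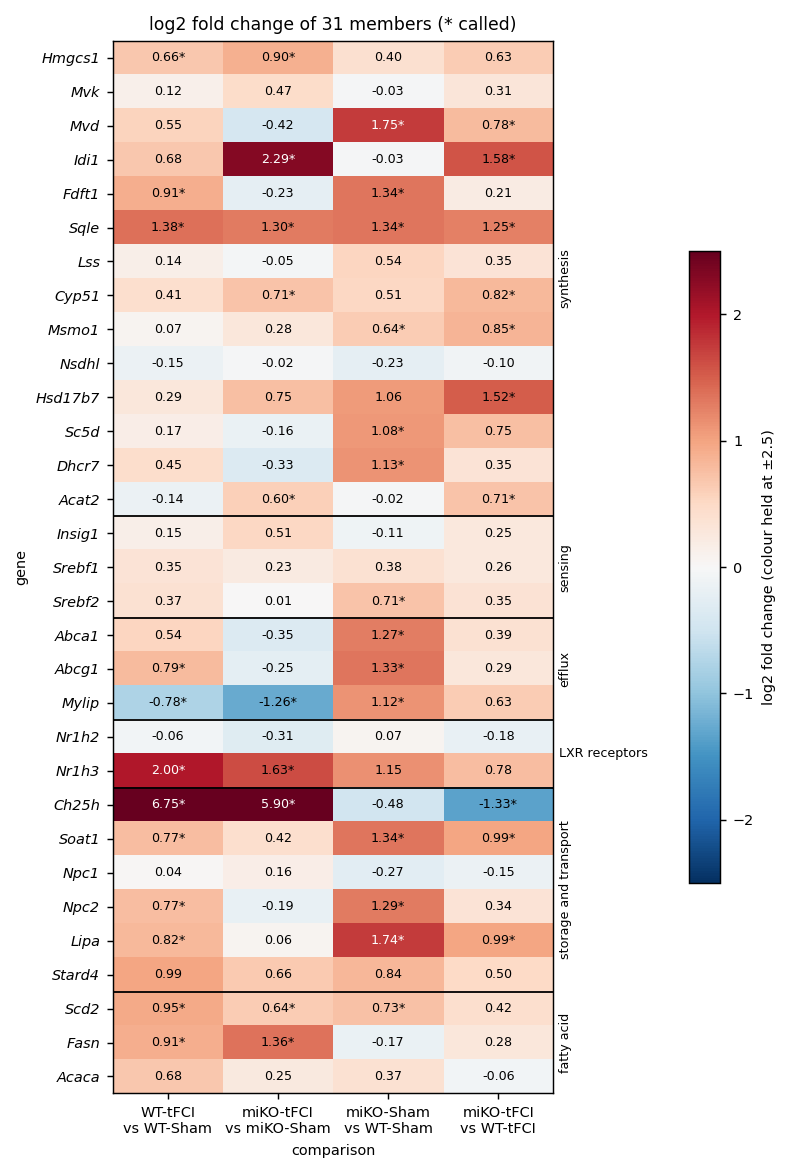
Fitted log2 fold change of the 31 members tested (vertical axis, grouped by role) in 4 comparisons (horizontal axis), with colour held at ±2.5 and an asterisk on each called value. Calls higher in miKO-Sham vs WT-Sham run through synthesis, export and lysosomal genes (14 higher, 0 lower), while in miKO-tFCI vs WT-tFCI the called genes are 7 of synthesis, Soat1, Lipa and, lower, Ch25h.

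Markers of other cells moved with surgery. The summed level of the 10 astrocyte markers was 183 to 369 CPM in WT-tFCI and 249 to 780 CPM in miKO-tFCI, with Gfap at most 2.82 CPM in each Sham library and from 29.1 to 251 CPM in tFCI. The 10 monocyte and macrophage markers summed to 44.5 to 213 CPM over the Sham libraries and to 456 to 1147 CPM over the tFCI libraries, the 9 endothelial markers to 14.1 to 32 CPM and 66.8 to 319 CPM, and the 12 oligodendrocyte markers to 152 to 222 CPM and 183 to 315 CPM. Most of the monocyte sum in WT-tFCI was Fn1 (296 to 446 CPM, against 0.205 to 3.25 CPM in WT-Sham). F13a1, Ms4a4c, Vcan and Emilin2 were also above WT-Sham in every WT-tFCI library. Ccr2 in WT-tFCI replicates 2 and 3 (3.35 and 3.17 CPM) was below each WT-Sham library (4.71 to 8.05 CPM). Ly6c2 there (1.96 and 1.10 CPM) lay within the WT-Sham range (0 to 19.7 CPM). No marker of these lists was at 0 in every library. Their part in the changes of the members with surgery was not tested.

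After stroke, miKO-tFCI was compared with WT-tFCI. Called genes were mostly of synthesis: 9 of 31 members were called higher (29.0%) and 1 lower, against 4.08% of all genes higher and 4.71% lower. The higher genes were 7 of 14 synthesis genes (Mvd, Idi1, Sqle, Cyp51, Msmo1, Hsd17b7 and Acat2), Soat1 and Lipa, and the lower one was Ch25h. The median log2FC was 0.73 over the synthesis genes, 0.39 over the export genes and 0.04 over all genes, and the export median was 0.20 without miKO-tFCI replicate 2 and 0.59 without miKO-tFCI replicate 1. Marker lists of other cells differed between the tFCI groups: the neutrophil markers summed to 149 to 213 CPM in WT-tFCI and 687 to 976 CPM in miKO-tFCI, the monocyte and macrophage markers to 456 to 742 CPM and 646 to 1147 CPM, and the border macrophage markers to 693 to 1031 CPM and 957 to 2135 CPM. Within the monocyte list, Fn1 was lower in miKO-tFCI replicates 2 and 3 (136 and 122 CPM) than in WT-tFCI (296 to 446 CPM). Chil3 (239 to 311 against 44.5 to 117 CPM) and F13a1 were higher in all miKO-tFCI libraries. The border macrophage sum was mostly Stab1 (661 to 1491 against 528 to 771 CPM). Folr2 and Pf4 were higher in all miKO-tFCI libraries. Mrc1 and Cbr2 were below each WT-tFCI library in miKO-tFCI replicate 1 and above them in replicates 2 and 3. The part of other cells in these calls was not tested.

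Ch25h had the lowest adjusted p of the members: every miKO-tFCI library was below every WT-tFCI library, with means of 19.6 ± 1.97 CPM and 49.4 ± 5.69 CPM (SD, n = 3), a fall of 1.33 on the log2 scale (SE 0.19, adjusted p = 5.22e-04 by edgeR). Lipa was higher in miKO-tFCI (log2 fold change 0.99, SE 0.18, adjusted p = 0.00297), with replicate 1 at 197 CPM and replicate 3 at 377 CPM. Soat1 was higher too (log2 fold change 0.99, SE 0.22, adjusted p = 0.0108), again lowest in replicate 1, and lost its call without WT-tFCI replicate 3 or miKO-tFCI replicate 3 (adjusted p = 0.0602 and 0.0558). The Ch25h and Lipa calls held in every other setting in which the genes were tested, 20 for Ch25h and 21 for Lipa.

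Among synthesis genes, Sqle was at 22.1 ± 0.658 CPM in miKO-tFCI, with its libraries close together, against 9.43 ± 4.53 CPM in WT-tFCI (SD, n = 3), and the groups did not overlap (log2 fold change 1.25, SE 0.32, adjusted p = 0.0237 by edgeR). Hsd17b7, the 3-ketosteroid reductase of the pathway, had 1.56, 3.47 and 1.13 CPM in WT-Sham replicates 1 to 3, 3.89, 3.05 and 5.89 CPM in miKO-Sham, 2.51, 2.77 and 2.19 CPM in the WT-tFCI libraries, and 7.23, 6.91 and 7.42 CPM in those of miKO-tFCI. At 11 to 70 counts per library it was called in miKO-tFCI, all of whose libraries were above every other library (log2 fold change 1.52, SE 0.41, adjusted p = 0.0299). Msmo1 (log2 fold change 0.85, SE 0.20, adjusted p = 0.0165), Mvd (log2 fold change 0.78, SE 0.20, adjusted p = 0.0208), Cyp51 (log2 fold change 0.82, SE 0.22, adjusted p = 0.0278), Idi1 (log2 fold change 1.58, SE 0.48, adjusted p = 0.0489) and Acat2 (log2 fold change 0.71, SE 0.19, adjusted p = 0.0279) did not overlap between the tFCI groups either. Of the synthesis genes not called, Hmgcs1 and Sc5d had log2FC of 0.63 and 0.75 (adjusted p = 0.105 and 0.0988), and the lowest was Nsdhl at -0.10.

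These synthesis calls depend on single libraries. Of 10 members called, the count was 3 without WT-tFCI replicate 2, without WT-tFCI replicate 3 or without miKO-tFCI replicate 3, and 6 without WT-tFCI replicate 1 or without miKO-tFCI replicate 1. Without WT-tFCI replicate 2, 0 synthesis genes were called, although the log2FC of the 7 genes then lay between 0.72 and 1.58, and the DESeq2 test called 7 with all libraries. Mvd, Sqle and Hsd17b7 were also lost without miKO-tFCI replicate 2 (adjusted p = 0.0619, 0.0551 and 0.0542), and Idi1 without WT-Sham replicate 2 or miKO-Sham replicate 3 (adjusted p = 0.0595 and 0.0539). The Idi1 call was also lost with the replicate number as a block (log2FC 1.50, adjusted p = 0.0515).

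Sensing and fatty acid genes showed no call between the tFCI groups, and among the export genes Mylip was at the threshold. The 95% interval was -0.04 to 0.57 for Srebf1, -0.12 to 0.90 for Abca1, -0.11 to 0.69 for Abcg1 and 0.22 to 1.05 for Mylip on the log2 scale, and Srebf2 had a log2FC of 0.35 (adjusted p = 0.199). Mylip had a log2FC of 0.63 (adjusted p = 0.0504) and was called in 11 of 21 other settings, DESeq2 among them (log2FC 0.65, adjusted p = 0.00734), while Abca1 and Abcg1 were called in 0 of them. In all 3 export genes, miKO-tFCI replicate 1 was the lowest library of its group, at 497 CPM for Abca1, 94.7 CPM for Abcg1 and 126 CPM for Mylip. The difference of Abcg1 was -0.21 within batch 1 and 0.50 within batch 2, of Abca1 0.12 and 0.49, and of Mylip 0.07 and 0.85. Without that library, 1 of them, Mylip, was called (log2FC 0.89, adjusted p = 0.00149). The same library had the most Ly6c2 (68.0 CPM, against 11.2 and 11.4 CPM in the other miKO-tFCI libraries), Ccr2 (75.9 against 18.5 and 22.4 CPM) and Gfap (251 against 88.1 and 88.5 CPM). The other monocyte markers were also highest there, apart from Chil3 (304 against 239 and 311 CPM) and F13a1 (71.0 against 170 and 323 CPM). Of the border macrophage markers, Mrc1 (17.4 against 143 and 162 CPM), Cd163, Lyve1, F13a1, Cbr2, Folr2 and Stab1 were lowest there, and Pf4 was highest. The part of these markers in the values of the export genes was not tested.

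**Figure D3:**
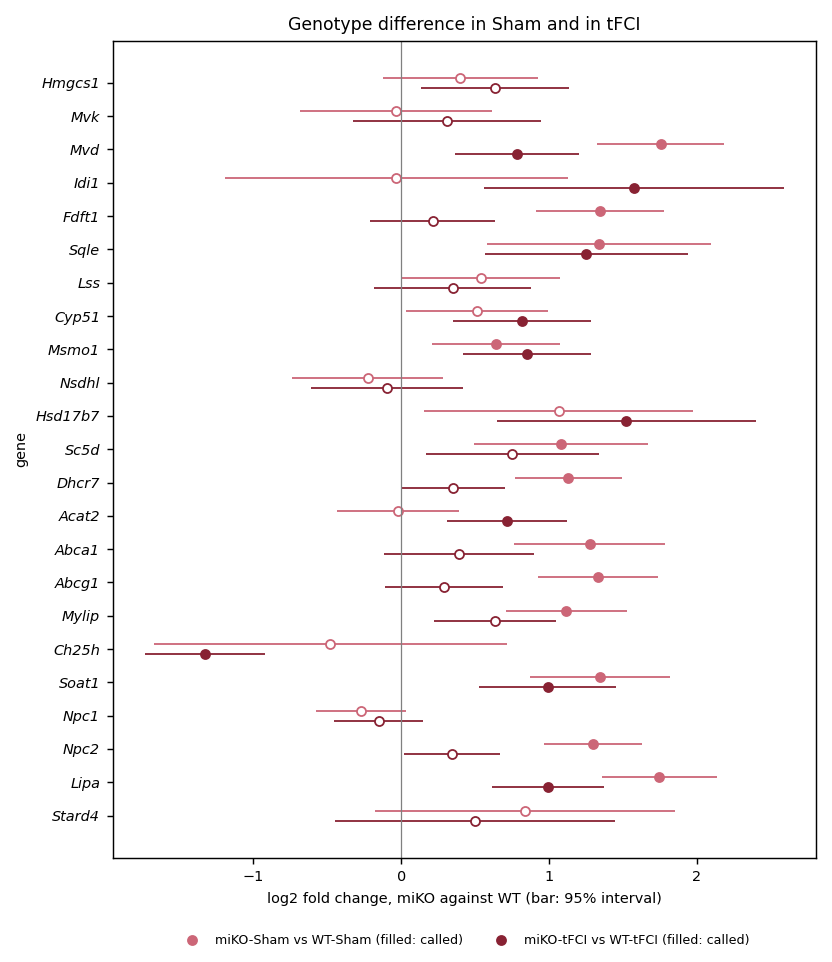
Difference of miKO from WT as log2 fold change (horizontal axis) with 95% intervals for the synthesis, export and storage genes tested (vertical axis), light in Sham and dark in tFCI, filled where called. The intervals of Abca1 and Abcg1 exclude 0 in Sham and include it in tFCI, and Ch25h is below 0 in tFCI (-1.73 to -0.92).

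Whether the genotype difference itself changed with surgery was tested by the interaction, the log2FC of miKO against WT in tFCI minus that in Sham. Of 31 members, 0 were called positive and 3 negative (9.68%), against 1.25% of all genes positive and 2.57% negative. They were Fdft1 (log2 fold change -1.13, SE 0.28, adjusted p = 0.0369), Abcg1 (log2 fold change -1.04, SE 0.27, adjusted p = 0.0414) and Npc2 (log2 fold change -0.95, SE 0.22, adjusted p = 0.0241). For Npc2, the excess of miKO over WT went from 1.29 in Sham to 0.34 in tFCI, and for Abcg1 from 1.33 to 0.29. Ctsb, the partner of Fdft1, had an interaction of the same sign (-1.05, adjusted p = 0.0478). All 3 calls were lost without WT-Sham replicate 2 or 3, miKO-Sham replicate 1 or 2, or WT-tFCI replicate 2 or 3, where 0 members were called, and 1 member was called without miKO-tFCI replicate 1 and 5 without miKO-Sham replicate 3.

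For the other members a change of the genotype difference was not called. Mvd (-0.97, adjusted p = 0.0703) and Dhcr7 (-0.78, adjusted p = 0.0882) came nearest among the synthesis genes. Sqle had an interaction of -0.08 (95% interval -1.08 to 0.91), with a genotype difference of similar size in Sham and tFCI. Idi1, Hsd17b7, Acat2 and Cyp51, called between genotypes in tFCI and not in Sham, had interactions of 1.61, 0.46, 0.74 and 0.30 that did not pass the test (adjusted p = 0.260, 0.758, 0.162 and 0.686), so a difference between the surgeries was not shown for them. That of Ch25h was -0.85 (95% interval -2.22 to 0.52), with few counts in Sham.

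Synthesis and export genes were set side by side in each library as the mean difference of log2 CPM from the WT-Sham mean. The means ran over all 15 synthesis genes and over Abca1, Abcg1 and Mylip. Fdps, at 1 to 9 counts per library and not tested, thus entered each synthesis mean with imprecise values. No mean without Fdps was computed. The synthesis mean was 0.54, 0.73 and 0.80 in miKO-Sham replicates 1 to 3, 0.43, 0.48 and 0.27 in WT-tFCI and 1.03, 0.95 and 1.14 in miKO-tFCI. It was highest in the 3 miKO-tFCI libraries, and leaving out Fdft1 kept them there, at 1.04, 0.92 and 1.14. The export mean was 1.38, 1.42 and 0.86 in miKO-Sham, 0.14, 0.18 and 0.25 in WT-tFCI and 0.13, 0.88 and 0.78 in miKO-tFCI. The synthesis mean minus the export mean was -0.34, 0.18 and 0.15 in the WT-Sham libraries, which shows the spread of this difference without genotype or surgery. It was -0.83, -0.70 and -0.06 in miKO-Sham, 0.29, 0.30 and 0.02 in WT-tFCI and 0.90, 0.06 and 0.36 in miKO-tFCI, so that replicate 3 of miKO-Sham, replicate 3 of WT-tFCI and replicate 2 of miKO-tFCI lay within the WT-Sham range. The order in the tFCI groups rests on Mylip: over Abca1 and Abcg1 alone the difference was -0.22, -0.15 and -0.48 in WT-tFCI and 0.43, -0.36 and 0.08 in miKO-tFCI. No order of synthesis against export was therefore steady across the tFCI libraries, and the values are a description without a test.

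**Figure D4:**
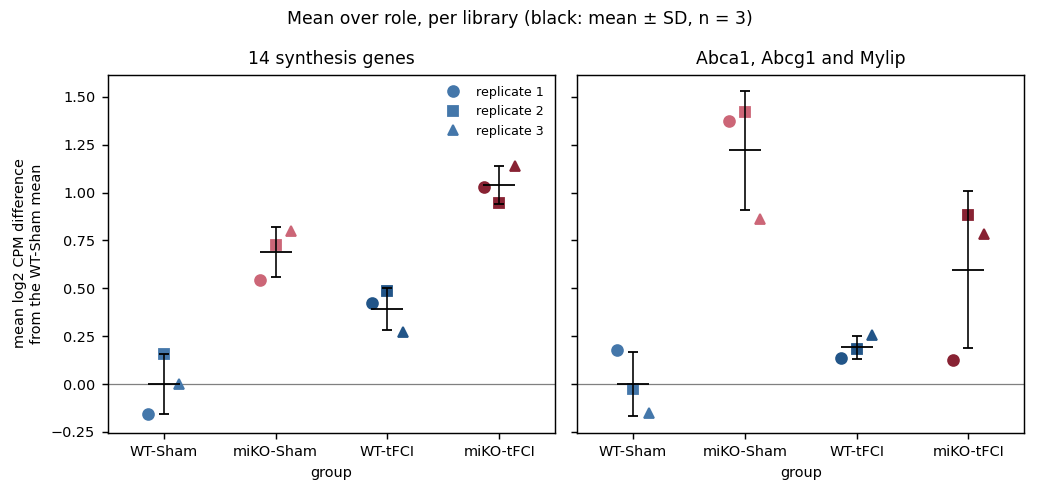
Mean difference of log2 CPM from the WT-Sham mean (vertical axis) over 15 synthesis genes (left) and over Abca1, Abcg1 and Mylip (right), by group on the horizontal axis, with a symbol per replicate and black mean ± SD (n = 3). The title of the left panel counts 14, but Fdps, which was not tested, is included. Synthesis is highest in miKO-tFCI (0.95 to 1.14), export spans 0.86 to 1.42 in miKO-Sham, and the miKO-tFCI libraries lie at 0.13, 0.88 and 0.78 for export.

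Other genes of the same pathways, 49 of 51 tested, gave a partly different picture. In miKO-Sham vs WT-Sham 12 were higher (24.5%) and 2 lower (4.08%), against 8.58% and 6.80% of all genes. Of the further LXR and lipoprotein genes 7 of 9 were higher, and of the further synthesis genes 1 of 10. Apoc1 and Apoe, apolipoproteins that accept cholesterol, had the largest rises: Apoc1 was at 0.120, 5.15 and 0.103 CPM in WT-Sham and 338, 371 and 26.9 CPM in miKO-Sham (log2 fold change 7.19, SE 1.04, adjusted p = 1.84e-04), and Apoe at 1512, 978 and 897 CPM and 64078, 65549 and 12774 CPM (log2 fold change 5.39, SE 0.56, adjusted p = 9.02e-06). In both, as for Abca1, miKO-Sham replicate 3 was the lowest library of its group. Erlin1 (log2 fold change -0.98, SE 0.16, adjusted p = 5.94e-04) and Cyp27a1, which makes 27-hydroxycholesterol (log2 fold change -0.91, SE 0.16, adjusted p = 0.00111), were lower. In miKO-tFCI vs WT-tFCI 11 were higher (22.4%) and 1 lower (2.04%), against 4.08% and 4.71% of all genes. Here 6 of 9 further LXR and lipoprotein genes were higher (median log2FC 0.79) and 2 of 10 further synthesis genes (median log2FC 0.26), unlike the order of the counts among the members. The largest rises were again those of Apoc1 (4.17) and Apoe (2.35) on the log2 scale, with Cyp27a1 lower (-1.08).

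With surgery, 12 of these genes were higher (24.5%) and 5 lower (10.2%) in WT, near the 20.9% and 11.7% of all genes, and 15 were higher (30.6%) and 8 lower (16.3%) in miKO, against 21.9% and 13.9%. Plin2, which coats lipid droplets, and Nceh1, a cholesterol ester hydrolase, rose most in WT (4.05 and 2.55 on the log2 scale), and Elovl6 and Fads2, enzymes that lengthen and desaturate fatty acids, rose most in miKO (3.76 and 3.17) apart from Cyp7b1, which was at most 0.416 CPM in miKO-Sham and for which no fold is given. Elovl6 was also low in miKO-Sham, at 0.555, 0.277 and 0.384 CPM, so that its fold is imprecise. Lpin1, a phosphatidate phosphatase, and Cyp27a1 fell most in WT (-1.29 and -1.05) and in miKO (-1.64 and -1.21). The interaction was negative for 4 genes (8.16%, against 2.57% of all genes) and positive for 0, most for Apoe (-3.04) and Plin2 (-2.16).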

How the data were processed

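RNA of sorted microglia was sequenced by the authors after SMART-Seq v4 amplification, which does not mark strand. Per the labels, the submitters' notes name FastQC 0.11.9, Trim Galore, HISAT2 2.2.1, SAMtools, HTSeq 1.99.2 and the mm10/GRCm38.p6 genome, and the authors deposited raw read counts per gene, without normalization. The strand setting of the counting is not given in the sources used here. Groups and replicate numbers were taken from the labels. Counts were fitted with edgeR 4.0.16 (R 4.3.3, TMM, quasi-likelihood, group and batch as terms, 16451 genes after the filter on low counts), and p-values were adjusted by Benjamini-Hochberg over all genes tested. They measure the spread between libraries, each pooled from 3 to 4 hemispheres. A call required both an adjusted p below 0.05 and a log2 fold change beyond 0.58 in either direction. CPM used TMM library sizes, log2 CPM a prior count of 2. The common biological coefficient of variation was 0.199. The scripts were tested on simulated data. DESeq2 1.42.0, other normalizations, filters, batch settings and the omission of each library were the alternatives. Members and gene lists were chosen with earlier results of these data known. Per library values were given for called members, at most 4 per role and comparison, and of the other pathway genes at most 2 per direction were named. Replicate numbers were also tried as a block, because deviations of same-numbered WT-tFCI and miKO-tFCI libraries correlated (each above 0.1). Replicates 2 and 3 crossed correlated as well, so a pairing by number within batch 2 was not shown. The labels give no pairing. No sequence was used for members absent from the promoter table.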

Additional observations from a re-analysis of the deposited data

Results flagged for a closer look

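For 3 members the difference between miKO and WT was smaller after tFCI than after Sham by the test of the interaction (edgeR quasi-likelihood, Benjamini-Hochberg). The interaction of Fdft1 was -1.13 on the log2 scale, that of Abcg1 was -1.04 and that of Npc2 was -0.95. Within batch 1 and batch 2 the interaction was -1.10 and -1.14 for Fdft1, -1.38 and -0.91 for Abcg1 and -1.14 and -0.87 for Npc2. The call was lost in 9 of 20 other settings for Fdft1, in 11 for Abcg1 and in 6 for Npc2, and the direction held in all of them. Fdft1 shares exon bases with Ctsb on the other strand, whose interaction was -1.05.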

How the results depend on the processing

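No called member changed direction in any alternative. The synthesis median of the interaction changed sign without miKO-tFCI replicate 1, and the median of all genes in WT-tFCI vs WT-Sham, 0.02, was -0.01 with upper-quartile normalization and -0.06 with at least 10 counts in every library. The cause of the changes below was not tested. With batch 2 alone, 6 members were called in miKO-tFCI vs miKO-Sham and 6 in miKO-tFCI vs WT-tFCI, and the synthesis median was 0.20 in WT-tFCI vs WT-Sham, 0.17 in miKO-tFCI vs miKO-Sham and 0.60 in miKO-tFCI vs WT-tFCI. Without a batch term, 5 members were called in miKO-tFCI vs WT-tFCI and 1 in the interaction. With no filter on low counts, 6 members were called in the interaction and the synthesis median of miKO-tFCI vs miKO-Sham was 0.24. Leaving out 1 library at a time, the members called ranged from 6 to 11 in miKO-tFCI vs miKO-Sham, from 3 to 11 in miKO-tFCI vs WT-tFCI and from 0 to 5 in the interaction. The synthesis median then ranged from 0.18 to 0.38 in WT-tFCI vs WT-Sham, 0.22 to 0.43 in miKO-tFCI vs miKO-Sham, 0.46 to 0.73 in miKO-Sham vs WT-Sham, 0.59 to 0.84 in miKO-tFCI vs WT-tFCI and -0.00167 to 0.34 in the interaction, and the export median from -0.62 to -0.15 in miKO-tFCI vs miKO-Sham. Of all genes, 1446 were called in miKO-tFCI vs WT-tFCI, but 701 without a batch term, 2193 with no filter, 2535 with only the groups compared, and 616, 700 and 917 without WT-tFCI replicate 3, WT-tFCI replicate 2 and miKO-tFCI replicate 3. In the interaction 629 were called, but 303 without a batch term, 1272 with no filter, and 281 to 383 without WT-Sham replicate 2 or 3, miKO-Sham replicate 1 or WT-tFCI replicate 2 or 3. In miKO-tFCI vs miKO-Sham 5887 were called, and 3744 with at least 10 counts in every library. Under DESeq2 the median of all genes in that comparison was 0.14, against 0.03.

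The replicate numbers were also used as a replicate block. Deviations of same-numbered libraries had correlations from -0.061 to 0.666. Between WT-tFCI and miKO-tFCI all 3 same-numbered pairs were above 0.1 (0.666, 0.334 and 0.324), but replicates 2 and 3 crossed gave 0.327 and 0.395, and replicate 1 is also batch 1. In the other comparisons at least 1 pair was below 0.1, and 8 of 12 libraries correlated best with their own number. With the block, 12, 10, 14, 9 and 3 members were called for surgery in WT, surgery in miKO, genotype in Sham, genotype in tFCI and the interaction, and Idi1 lost its call in miKO-tFCI vs WT-tFCI (1.50, adjusted p = 0.0515). The block changed no other call of a member. Counts were low for Fdps, Idi1, Hsd17b7 and Ch25h in Sham, which limits their precision.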
